A study of Mus musculus with 9 samples.

Results

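Genes for neutrophil granule proteins and for secreted acute-phase proteins were followed in Reissner's membrane, the thin epithelial and mesothelial sheet between the scala media and the scala vestibuli in the mouse cochlea. The set held 9 genes of the 18193 with a probe set of their own, chosen by name with earlier results of these data known: the granule genes S100a8, S100a9, Camp, Ngp, Ltf, Mpo and Chil3, and the secreted acute-phase genes Lcn2 and Saa3. They had 10 probe sets on the array of 45101, 1 of which is annotated to both Chil4 and Chil3, and all 10 passed the filter on low signals that left 18913 probe sets to test. Mpo and the shared Chil4 and Chil3 probe set passed it through the fresh arrays alone, so in the comparisons with fresh tissue they could hardly come out any other way than lower.

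The tissue came from adult mice, was dissected by hand and pooled, and no strain is given in the sources used here. Of the 3 groups of 3 arrays, lettered A to C, dexamethasone tissue was kept as explants for 24 h with 100 nM dexamethasone, a synthetic glucocorticoid, incubated tissue was kept for 24 h without it, and fresh tissue was extracted at 0 h. For dexamethasone arrays B and C the labels type the dose in mM, while array A's label and the design text give nM. The design text can be read as 3 chips hybridized per pooled biological sample. Whether letters A to C are separate pools or repeat hybridizations is not stated. The p-values therefore reflect array-to-array spread alone, possibly technical, and the number of arrays limits the precision. If the arrays of a group share a pool, differences between groups cannot be told from differences between pools. Explants have no circulation, and in pooled tissue fewer cells of a type and less RNA per cell cannot be told apart.

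Neutrophils are short-lived white blood cells that make most of their granule proteins while they mature in bone marrow, so that granule transcripts such as Mpo are most abundant in immature cells, while S100a8 and S100a9 transcripts persist in mature ones. The granule proteins kill microbes by taking up metal ions, by making oxidants and by breaking membranes. Lcn2 and Saa3 are also stored in or made by white blood cells, but in addition they are acute-phase genes of epithelial and stromal cells in mice, switched on by cytokines through NF-kB, C/EBP and STAT3 factors and, in several mouse cell types, by glucocorticoids.

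The stretch of 250 bases before the annotated start is shown for Lcn2 and Saa3, which were higher with dexamethasone, and for S100a8 and S100a9, the calprotectin pair among the granule genes (RefSeq, GRCm38.p6). Each is printed in the direction of the gene, and capitals mark matches on either strand to a TATA box (TATAAA), a C/EBP-type motif (TTNNGNAA), a glucocorticoid receptor motif (ACA and TGTNC with 3 bases of any kind between them) or the NF-kB consensus. The windows lie at chr2:32387740-32387989 on the minus strand for Lcn2, chr7:46715677-46715926 on the minus strand for Saa3, chr3:90668821-90669070 on the plus strand for S100a8 and chr3:90695722-90695971 on the minus strand for S100a9.
Lcn2: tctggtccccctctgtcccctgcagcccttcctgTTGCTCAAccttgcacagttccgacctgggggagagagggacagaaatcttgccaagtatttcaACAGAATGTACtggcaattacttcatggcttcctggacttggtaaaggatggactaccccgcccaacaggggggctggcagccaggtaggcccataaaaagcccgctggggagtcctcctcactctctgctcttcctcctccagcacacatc
Saa3: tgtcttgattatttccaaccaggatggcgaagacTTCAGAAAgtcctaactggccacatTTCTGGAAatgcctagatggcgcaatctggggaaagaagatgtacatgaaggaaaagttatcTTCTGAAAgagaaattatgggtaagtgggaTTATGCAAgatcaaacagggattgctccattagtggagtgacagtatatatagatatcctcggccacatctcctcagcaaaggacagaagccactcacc
S100a8: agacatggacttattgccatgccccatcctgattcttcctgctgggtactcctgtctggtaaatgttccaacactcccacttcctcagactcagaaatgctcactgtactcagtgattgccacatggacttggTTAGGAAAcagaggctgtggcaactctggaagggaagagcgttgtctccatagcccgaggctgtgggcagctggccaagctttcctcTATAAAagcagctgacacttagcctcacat
S100a9: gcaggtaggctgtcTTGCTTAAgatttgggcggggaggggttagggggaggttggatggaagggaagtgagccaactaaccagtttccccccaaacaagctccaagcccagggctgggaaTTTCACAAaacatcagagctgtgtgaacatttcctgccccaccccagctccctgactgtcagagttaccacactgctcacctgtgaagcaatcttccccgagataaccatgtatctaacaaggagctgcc
In windows that also took in the 50 bases after the start, which were searched for all 9 members and for 32851 promoters in all, the glucocorticoid receptor motif was found in Lcn2 alone among the members, at bases -152 to -142, and in 3.11% of all windows. The C/EBP-type motif was found in 7 of 9 members, against 40.7% of all windows. Saa3 had 4 matches, S100a9 2, S100a8 and Lcn2 1 each, and Ngp, Chil3 and Ltf more than 1 each. TATAAA was found in S100a8, S100a9 and Chil3, against 13.6% of all windows, and the NF-kB consensus in Camp alone, against 8.46%. The motifs may overlap each other, a match is a description of letters and not a binding site, and the search did not reach beyond these windows.

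The 7 granule genes were lower on all 3 incubated arrays than on any fresh array. On the dexamethasone arrays all 7 were under 200, the signal taken as the working floor below which values have no reliable order, and the 6 that incubated tissue still had above it, all but Mpo, were lower there than on any incubated array. Lcn2 and Saa3 went the opposite way at both steps. A linear model over all 18913 tested probe sets (limma, Benjamini-Hochberg adjustment, on the log2 of signal plus 32) called all 7 granule genes lower and both Lcn2 and Saa3 higher for incubated against fresh, where 75.1% of all tested probe sets were called in either direction. Non-overlap of 3 arrays against 3 was as common, at 76.8% of tested probe sets for incubated against fresh, 59.2% for dexamethasone against incubated and 77.9% for dexamethasone against fresh, so neither a call nor non-overlap alone sets the members apart.

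By the fitted changes, 7 of 7 granule genes fell by at least 2-fold and 1 of the 2 acute-phase genes, Saa3, rose by at least 2-fold for incubated against fresh, where 11.6% of tested probe sets were lower and 7.59% higher by that much. With means under the floor put at the floor the counts were the same, beside 8.91% lower and 6.94% higher. For dexamethasone against incubated, where 52.5% of probe sets were called, the fitted counts were 6 of 7 lower and 2 of 2 higher, beside 1.34% lower and 3.25% higher. With means put at the floor only S100a8, S100a9 and Ngp, 3 of 7, were at least 2-fold lower, beside 1.07% of tested probe sets, and Lcn2 and Saa3 were both at least 2-fold higher, beside 2.38%. For dexamethasone against fresh, where 76.2% were called, 12.5% lower and 9.1% higher by at least 2-fold as fitted, 7 of 7 were lower and 2 of 2 higher both ways. The 3 comparisons share arrays, so their counts are not independent of each other. Since the members were chosen with earlier results of these data known, the shares beside their counts are a description and not a test. For Mpo the filter all but fixed the fall against fresh tissue.

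**Figure D1:**
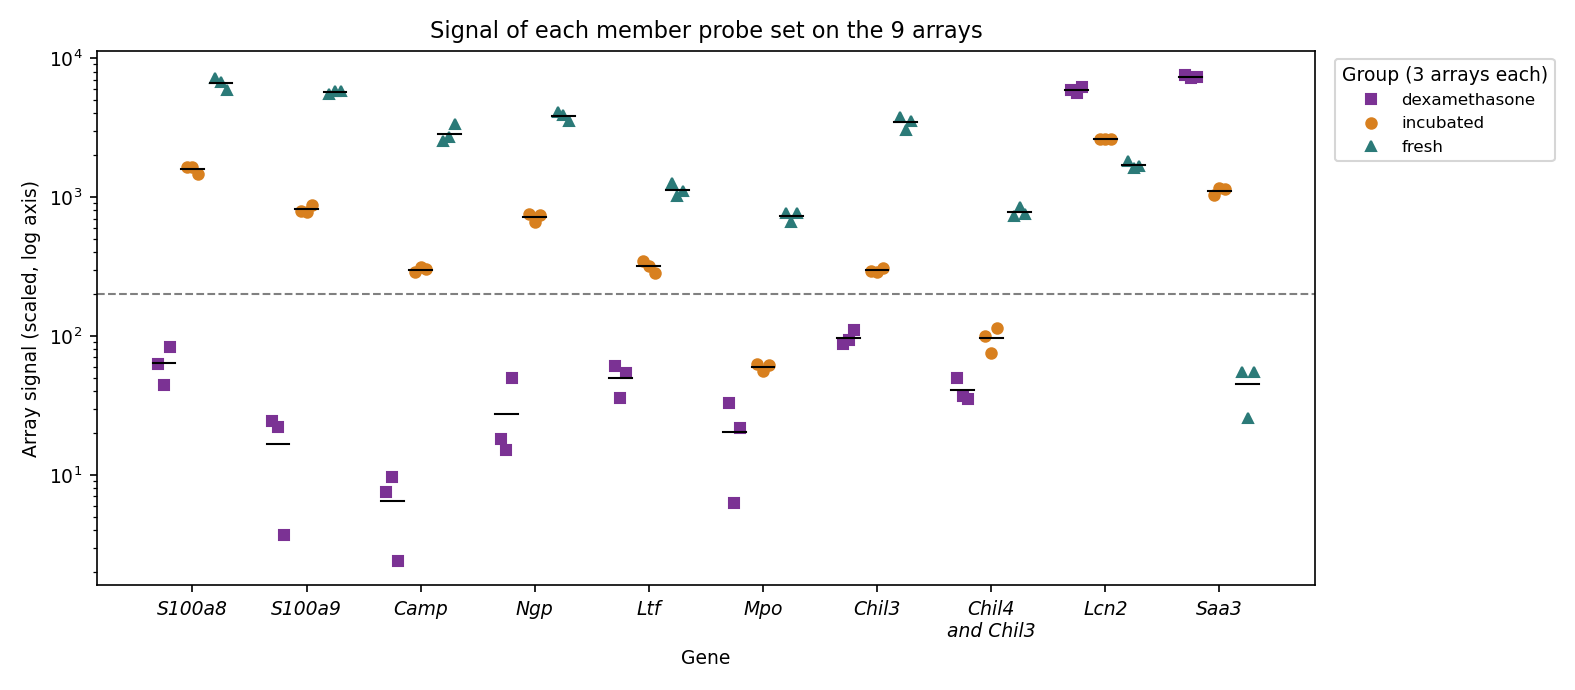
Array signal (linear scale units with a target of 500, log axis) of each of the 10 member probe sets, with dexamethasone, incubated and fresh arrays from left to right, 1 point per array and a black bar at the group mean. The dashed line marks the working floor of 200. Every granule gene lies under the line on all 3 dexamethasone arrays, while Lcn2 and Saa3 are at their highest there.

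S100a8 and S100a9 are calcium-binding proteins that pair to form calprotectin, an abundant cytosolic protein complex of neutrophils, which withholds zinc and manganese from microbes. S100a8 (probe set 1419394_s_at) had signals of 62.6, 44.3 and 83.7 on the dexamethasone arrays, 1653.2, 1646.5 and 1475.9 on the incubated arrays and 7160.6, 6690.4 and 5884.2 on the fresh arrays. S100a9 (1448756_at) had 24.5, 22.1 and 3.7 on the dexamethasone arrays, 795.8, 773.7 and 882.0 on the incubated arrays and 5478.5, 5820.2 and 5825.6 on the fresh arrays. The groups did not overlap for either gene, and on the dexamethasone arrays both were under the floor. In incubated against fresh tissue S100a8 fell by 2.02 on the log2 scale (SE 0.13, adjusted p = 1.25e-08 by limma, 4.13-fold) and S100a9 by 2.76 (SE 0.14, adjusted p = 2.07e-09, 6.99-fold). With dexamethasone against without, S100a8 was at least 7.96-fold lower (adjusted p = 3.78e-10) and S100a9 at least 4.09-fold lower (adjusted p = 7.57e-10), which are bounds because the dexamethasone arrays lay under the floor. The S100a8 probe set bears the suffix _s_at, which marks probes that may hybridize to several transcripts.

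Camp and Ngp are cathelicidin-type proteins of the secondary granules, and Camp is the precursor of the antimicrobial peptide CRAMP. Camp (1419691_at) had signals of 7.5, 9.7 and 2.4 on the dexamethasone arrays, 286.4, 313.1 and 301.8 on the incubated arrays and 2549.0, 2715.6 and 3329.6 on the fresh arrays. Ngp (1418722_at) had 18.1, 15.0 and 49.9 on the dexamethasone arrays, 753.4, 661.7 and 746.7 on the incubated arrays and 4094.5, 3901.2 and 3534.0 on the fresh arrays. Both were lower at each step without overlap, as the calprotectin genes did. Incubated against fresh, Camp fell by 3.11 on the log2 scale (SE 0.12, adjusted p = 1.28e-10 by limma, 9.54-fold) and Ngp by 2.36 (SE 0.17, adjusted p = 4.05e-08, 5.33-fold). With dexamethasone, Ngp was at least 3.60-fold lower than in incubated tissue (adjusted p = 7.93e-09) and Camp at least 1.502-fold lower (adjusted p = 1.70e-09). The bound for Camp is low because its incubated signals were already close to the floor.

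Ltf codes for lactoferrin, the iron-binding protein of the secondary granules. Ltf (1450009_at) had signals of 60.9, 35.9 and 53.9 on the dexamethasone arrays, 348.4, 317.8 and 283.1 on the incubated arrays and 1256.1, 1015.1 and 1113.9 on the fresh arrays. Its fall on incubation, 1.73 on the log2 scale (SE 0.13, adjusted p = 8.91e-08 by limma, 3.57-fold), was the smallest of the 7 granule genes as fitted. With dexamethasone it was at least 1.58-fold lower than in incubated tissue (adjusted p = 1.32e-07).

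Mpo codes for myeloperoxidase, the oxidant-making enzyme of the primary granules, and Chil3 for Ym1, a chitinase-like lectin of mouse neutrophils and alternatively activated macrophages. Mpo (1415960_at) had signals of 32.9, 6.3 and 21.7 on the dexamethasone arrays, 62.7, 56.0 and 61.9 on the incubated arrays and 772.0, 664.9 and 771.0 on the fresh arrays. Chil3 (1419764_at) had 87.8, 93.5 and 110.2 on the dexamethasone arrays, 295.4, 289.8 and 309.1 on the incubated arrays and 3786.1, 3029.9 and 3530.2 on the fresh arrays. Mpo was thus the granule gene already under the floor after incubation alone, at least 3.68-fold lower than in fresh tissue (adjusted p = 6.85e-09 by limma). For dexamethasone against incubated both of its groups lay under the floor, so no fold is given, although the test passed (adjusted p = 0.00153). Chil3 fell by 3.39 on incubation (log2, SE 0.097, adjusted p = 1.13e-11, 11.6-fold), and with dexamethasone it was at least 1.49-fold lower than in incubated tissue (adjusted p = 3.56e-07).

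The probe set annotated to both Chil4 and Chil3 (1425451_s_at) had signals of 50.1, 37.0 and 35.1 on the dexamethasone arrays, 100.1, 75.6 and 113.4 on the incubated arrays and 733.6, 844.9 and 750.6 on the fresh arrays. It was at least 3.88-fold lower in incubated than in fresh tissue (adjusted p = 3.07e-09 by limma), the same direction as the Chil3 probe set, and its signals from Chil3 and Chil4 cannot be told apart. Both its groups were under the floor for dexamethasone against incubated (adjusted p = 4.27e-04).

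Lcn2 codes for lipocalin 2, a secreted carrier that binds bacterial siderophores and so withholds iron, stored in neutrophil granules and made by stressed epithelia. Lcn2 (1427747_a_at) had signals of 5868.4, 5628.8 and 6186.0 on the dexamethasone arrays, 2630.1, 2614.9 and 2630.6 on the incubated arrays and 1802.6, 1628.1 and 1677.0 on the fresh arrays. The groups were far apart relative to their spread, and Lcn2 was the one member above the floor in every group. It rose by 0.62 on incubation (log2, SE 0.053, adjusted p = 2.66e-07 by limma, 1.54-fold) and by 1.16 with dexamethasone against incubated (SE 0.053, adjusted p = 9.19e-09, 2.25-fold). Against fresh tissue the dexamethasone arrays were 3.46-fold higher.

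Saa3 codes for serum amyloid A3, the form of this acute-phase lipoprotein that mice make outside the liver in epithelial, stromal and fat cells and in macrophages. Saa3 (1450826_a_at) had signals of 7546.9, 7157.1 and 7313.6 on the dexamethasone arrays, 1033.1, 1151.6 and 1139.4 on the incubated arrays and 55.3, 25.5 and 55.2 on the fresh arrays. All fresh arrays were under the floor, so Saa3 was not measurable in fresh tissue while Lcn2 was. Saa3 was at least 5.54-fold higher in incubated than in fresh tissue (adjusted p = 4.34e-11 by limma) and rose 6.62-fold with dexamethasone against incubated (2.69 on the log2 scale, SE 0.13, adjusted p = 1.52e-08). Against fresh tissue the dexamethasone arrays were at least 36.7-fold higher.

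**Figure D2:**
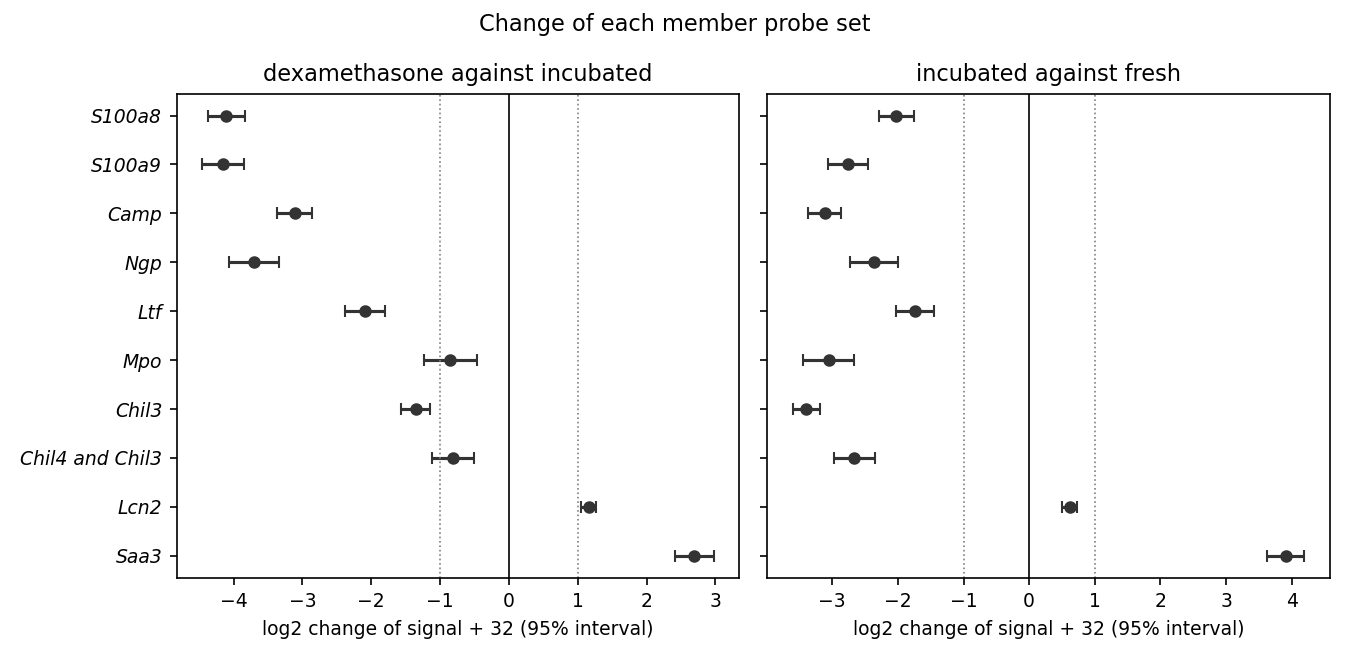
Fitted log2 change of signal plus 32 for each of the 10 member probe sets with its 95% interval, for dexamethasone against incubated on the left and incubated against fresh on the right; dotted lines mark 2-fold. Each granule probe set lies left of 0 in both panels and Lcn2 and Saa3 lie right of 0, with 0.62 and 3.91 on incubation and 1.16 and 2.69 with dexamethasone; where a group lay under the floor the fitted value depends on the pseudocount.

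Ranks were taken only among probe sets that reached the floor on at least 1 array of both groups, 15982 for incubated against fresh and 16249 for dexamethasone against incubated. On incubation, counted from the lowest fitted change up, Chil3 ranked 13, Camp 22, S100a9 44, Ngp 75, S100a8 152 and Ltf 252, while Lcn2 ranked 2594 from the highest. With dexamethasone against incubated Saa3 ranked 3 from the highest and Lcn2 166, and no granule gene could be ranked. The median fitted change of the 7 granule genes was -2.76 for incubated against fresh, beside -0.050 for all tested probe sets, and -3.11 for dexamethasone against incubated, beside 0.0071. With means under the floor put at the floor, the median log2 ratio of the 7 was -2.42 for incubated against fresh, beside -0.027, and -0.66 for dexamethasone against incubated, beside 0. Against fresh tissue the dexamethasone arrays were lower by at least 32.9-fold for S100a8, 28.5-fold for S100a9, 19.2-fold for Ngp, 17.2-fold for Chil3, 14.3-fold for Camp, 5.64-fold for Ltf and 3.68-fold for Mpo.

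The difference between the change of Lcn2 or Saa3 and that of each granule gene was computed within arrays, as the difference of their log2 signals with signals under the floor put at the floor, so that a difference resting on the floor is a lower bound. For incubated against fresh, the change of Lcn2 exceeded that of the 7 granule genes by 2.46 to 4.15, with that against Mpo a bound, and the change of Saa3 exceeded it by at least 4.30 to 5.99. For dexamethasone against incubated the differences over 6 granule genes, Mpo left out because both its groups lay under the floor, were at least 1.74 to 4.16 for Lcn2 and at least 3.30 to 5.72 for Saa3. The exact two-sided permutation test gave p = 0.1 for each pair, which is the smallest p that 3 arrays against 3 allow. A scaling common to all genes of an array cancels in these differences except where the floor was used.

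The members among themselves were set side by side by the root mean square difference of their log2 profiles over the 9 arrays, each centred on its own mean, as a description with no test. From S100a9, the nearest members were Camp at 0.455, S100a8 at 0.482 and Ngp at 0.517, then Chil3 at 1.22, Ltf at 1.31 and Mpo at 1.51, while Lcn2 lay at 3.58 and Saa3 at 5.52. The nearest genes outside the set were Alas2, the first enzyme of heme synthesis in red cell precursors, at 0.969, Cndp1, a carnosine-cleaving peptidase, at 1.14, Car3, a carbonic anhydrase, at 1.28, and Kcne2, a potassium channel subunit, at 1.37. Alas2 averaged 3.43 ± 1.17 in dexamethasone, 112 ± 22.8 in incubated and 1154 ± 51.1 in fresh tissue (SD, n = 3 each).

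Lcn2 and Saa3 lay 2.02 from each other on this measure, and their nearest genes were different ones. For Lcn2 these were Csnk2a1, a catalytic subunit of casein kinase 2, at 0.0758, Ahnak2, a large scaffold protein, at 0.0833, Hspa1a, an inducible Hsp70 chaperone, at 0.127, and Gclc, the rate-limiting enzyme of glutathione synthesis, at 0.130. Hspa1a averaged 11710 ± 438 in dexamethasone, 5531 ± 494 in incubated and 3032 ± 115 in fresh tissue (SD, n = 3 each). For Saa3 they were Cxcl1, a chemokine that attracts neutrophils, at 0.455, Dusp5, a phosphatase of ERK kinases, at 0.660, Maff, a small Maf transcription factor, at 0.768, and Ccn1, a matrix-associated signalling protein, at 0.824. Cxcl1 averaged 2493 ± 286 in dexamethasone, 691 ± 35.3 in incubated and 11.9 ± 17.8 in fresh tissue (SD, n = 3 each). The 9 points come from 3 pooled groups, so likeness here mostly restates the group means, and for genes under the floor in a group it depends on the pseudocount.

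Other neutrophil granule genes were measured for comparison, 13 tested of 23 on the array. Incubated against fresh, 7 were lower, 5 higher and 1 not called, with a median of -1.004 beside -0.050 for all tested probe sets. Among all 18913, 6620 were called higher and 7593 lower. Those that fell included the primary-granule protease genes Prtn3, at least 2.37-fold lower, and Elane, at least 1.64-fold lower, the collagenase gene Mmp8, at least 1.66-fold lower, and Hp, the hemoglobin-binding haptoglobin, at least 1.99-fold lower. These 4 and Mmp9, Pglyrp1 and Cd177, 7 of the 13, were under 200 on every dexamethasone and incubated array and passed the filter through the fresh arrays alone, so that their fall on incubation was fixed by the filter. They are the 7 called lower. The list's median of -1.004 is the value of Mmp9, so it too rests on the filter. Slpi, an elastase inhibitor that epithelial cells also secrete, rose on incubation, at least 20.3-fold against the floor, which 1 of 3 fresh arrays reached (4069 ± 335 incubated, 173 ± 30.4 fresh, SD, n = 3 each, adjusted p = 1.40e-12 by limma). Lyz2, Cybb and Cyba, which macrophages share, and Adam8, a membrane protease of myeloid cells, rose as well.

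With dexamethasone against incubated, 7 of these 13 genes were called lower, 2 higher and 4 did not pass, with a median of -0.44 beside 0.0071. Over all 18913 tested probe sets 5116 were called higher and 4820 lower. Mmp9, Pglyrp1 and Cd177, called lower, and Hp, called higher, were under the floor in both groups. Those calls rest on values without a reliable order. Slpi fell by 0.84 on the log2 scale (2262 ± 121 dexamethasone, 4069 ± 335 incubated), and Serpinb1a, a neutrophil protease inhibitor, was at least 1.11-fold lower. Lyz2, the macrophage and neutrophil lysozyme, fell by 0.44. Prtn3 and Elane, at 23.6 ± 13.97 and 45.6 ± 22.01 with dexamethasone and 17.3 ± 17.4 and 37.3 ± 23.8 in incubated tissue, were under the floor in both groups and did not pass the test. Scaling to the hybridization controls, which moved the median change of all tested probe sets to -0.46, gave 8 lower and 1 higher, beside 13572 lower and 1260 higher of all 18893.

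Of 14 tested surface, cytosol and lineage markers of neutrophils, out of 22 on the array, 10 fell, 2 rose and 2 did not pass for incubated against fresh, with a median of -0.77. The whole of the tested probe sets, 18913, gave 7593 lower and 6620 higher. Of the 10 that fell, Csf3r and Selplg passed the filter through the fresh arrays alone. Their fall could hardly come out otherwise. Ptprc, the leukocyte marker CD45, fell 2.20-fold (376 ± 37.1 incubated, 827 ± 99.6 fresh), and Csf3r, the receptor for the neutrophil growth factor G-CSF, which passed the filter through the fresh arrays alone, was at least 1.13-fold lower, while Clec4d, a C-type lectin of myeloid cells, was at least 3.11-fold higher. With dexamethasone against incubated 6 rose, 4 fell and 4 did not pass, with a median of 0.22, and with scaling to the hybridization controls 1 rose and 5 fell of 12 tested. Ptprc was at least 1.88-fold lower and Lcp1, a leukocyte actin-bundling protein, fell by 0.60 on the log2 scale, whereas Alox5ap, which helps to make leukotrienes, rose 2.26-fold. Csf3r was 51.2 ± 43.4 with dexamethasone and 114 ± 13.8 in incubated tissue, under the floor in both groups though past the test (adjusted p = 0.0112 by limma). The largest rise of the list, that of Mcemp1 by 1.49 on the log2 scale, also had both means under 200. They were 183 ± 83.3 with dexamethasone and 43.6 ± 25.1 in incubated tissue. Cxcr2, the neutrophil chemokine receptor, and Itgam, the integrin chain CD11b, were under 200 in all 3 groups. Many genes of this list are shared with macrophages.

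**Figure D3:**
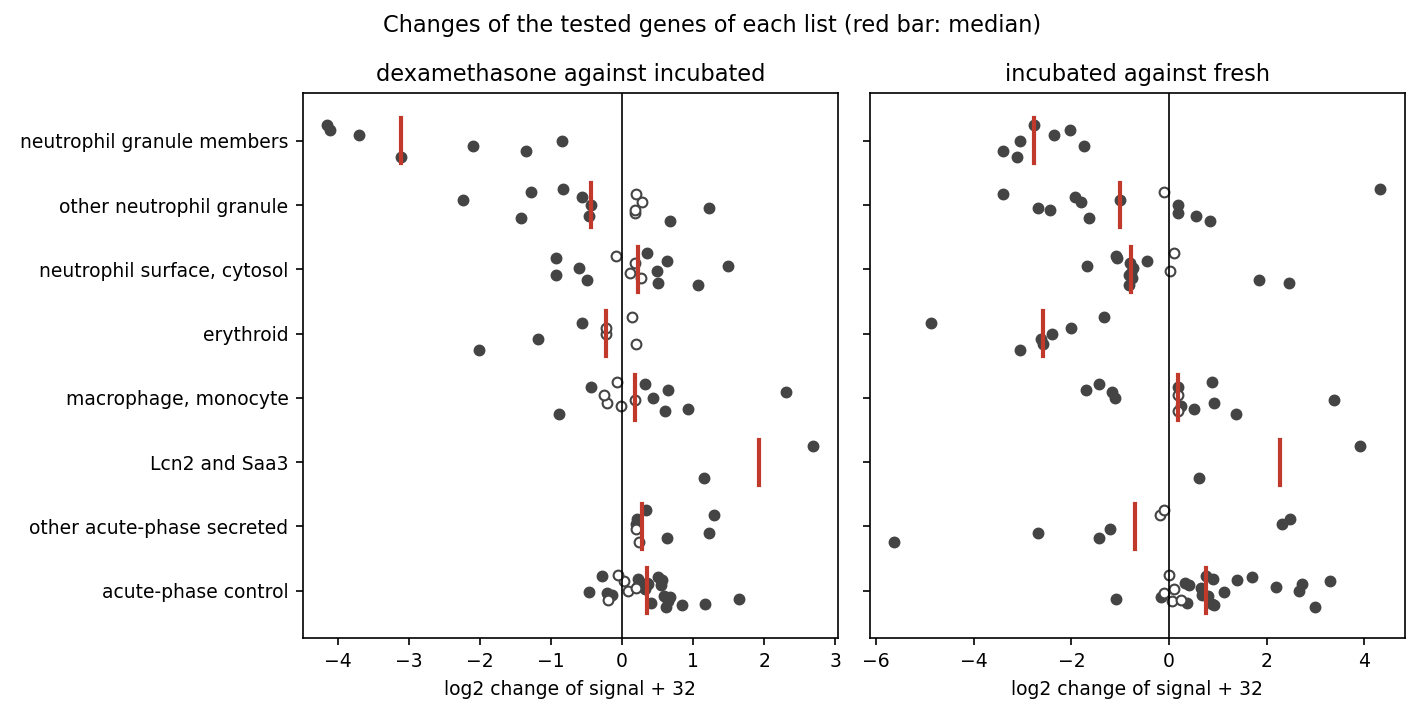
Fitted log2 change of the tested genes of each list, dexamethasone against incubated on the left and incubated against fresh on the right, with 1 circle per gene, filled where the test was passed, and a red bar at the list's median. The granule members have medians of -3.11 and -2.76, the other granule genes -0.44 and -1.004, and the other acute-phase genes 0.29 and -0.70. The median of -1.004 is that of Mmp9, which passed the filter through the fresh arrays alone. Values of genes under the floor in a group depend on the pseudocount.

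Summed signals of red cell, platelet, B cell, and eosinophil, basophil and mast cell markers were also lower in cultured tissue, though most of these genes lay near or under the floor. The summed signal of the 7 granule genes ranged over 226.8 to 325.5 on dexamethasone arrays, with none of the 7 averaging 200 or more, 4058.6 to 4195.3 on incubated arrays, with 6 above, and 23837.3 to 25096.8 on fresh arrays, with all 7. Red cell markers, 16 genes on the array, summed to 1014.1 to 1146.6 on dexamethasone arrays and 1098.8 to 1267.1 on incubated arrays, with 1 gene averaging 200 or more in each, against 6893.4 to 7138.5 on fresh arrays, with 7. Those sums in cultured tissue are mostly signal under the floor. Slc4a1, the band 3 anion exchanger, was at least 9.04-fold lower in incubated than in fresh tissue and Alas2 at least 5.77-fold lower. All 7 tested red cell genes were called lower on incubation, but 6 of them passed the filter through the fresh arrays alone and could hardly come out otherwise. With dexamethasone against incubated 3 of the 7 were called lower and 4 were not called. There the same 6 genes lay under the floor in both groups, where values have no reliable order.

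Platelet markers, 10 genes, summed to 639.1 to 727 on dexamethasone arrays, 1063.9 to 1292.6 on incubated arrays and 2365 to 2494.9 on fresh arrays. In dexamethasone tissue 1 of them averaged 200 or more, in incubated tissue 2 and in fresh tissue 3. The platelet chemokine gene Pf4 was at least 2.72-fold lower with dexamethasone than in incubated tissue, against the floor, which 1 of 3 dexamethasone arrays reached (164 ± 36.0 dexamethasone, 545 ± 57.1 incubated). Itga2b, the platelet integrin chain, was called lower too, and Ppbp, another platelet chemokine gene, was called lower with both groups under the floor. B cell markers, 13 genes, summed to 2175.3 to 2309.2 on dexamethasone, 1062.8 to 1160.9 on incubated and 3259 to 3441.1 on fresh arrays, and 10 of them, Cd79a, Cd79b and Ms4a1 included, averaged under 200 in all 3 groups. In each cultured group 1 gene averaged 200 or more, and in fresh tissue 3. Of the 2 tested, Ighm passed the filter through the fresh arrays alone. The other fell by 1.28 on the log2 scale on incubation. With dexamethasone it was called higher, by 1.45 against incubated and 0.16 against fresh tissue. Of 14 eosinophil, basophil and mast cell markers, Prg2, a granule protein of eosinophils, averaged over 200 in fresh tissue alone, at 254, and the list summed to 271.2 to 290.9 on dexamethasone, 254.6 to 351.3 on incubated and 770.2 to 881.8 on fresh arrays.

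Neutrophil surface, cytosol and lineage markers summed to 83.4% of the fresh mean in dexamethasone and 70.9% in incubated tissue, and macrophage and monocyte markers, 20 genes, to 106% and 97.8%. Of the 22 neutrophil markers 9 averaged 200 or more in dexamethasone, 9 in incubated and 12 in fresh tissue. Of 13 tested macrophage genes 7 rose, 4 fell and 2 were not called on incubation, with Cd68, a lysosomal protein, at least 8.23-fold higher and Csf1r, the receptor of the macrophage growth factor, at -1.11 on the log2 scale. With dexamethasone 6 rose, 2 fell and 5 were not called, or 2 rose and 7 fell with scaling to the hybridization controls. Epithelial markers, all 13 above 200 in every group, summed to 258% and 226%. On incubation 12 of the 13 rose, among them the tight junction gene Cldn6 by 4.25 on the log2 scale, and with dexamethasone 9 rose and 1 fell, or 10 of 13 fell with scaling to the hybridization controls. Beside these macrophage and epithelial counts, incubation gave 6620 higher and 7593 lower of all 18913 tested probe sets. Dexamethasone gave 5116 and 4820, or 1260 and 13572 of 18893 with that scaling. The part of blood cells left in the tissue in the changes of the granule genes was not tested.

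The other secreted acute-phase genes did not all move with Lcn2 and Saa3. Of 29 on the array 8 were tested, and 21, among them Saa1, Saa2, Orm1, Lrg1 and Fga, averaged under 200 in all 3 groups. On incubation 4 fell, 2 rose and 2 did not pass, with a median of -0.70, beside 7593 lower and 6620 higher of all 18913 tested probe sets. A2m, a broad protease trap that like Hp passed the filter through the fresh arrays alone, was at least 14.4-fold lower (27.4 ± 7.18 incubated, 2885 ± 116 fresh, adjusted p = 3.82e-12 by limma), Cp, the copper-carrying ferroxidase, fell by 1.44 on the log2 scale, and the metallothionein genes Mt1 and Mt2 rose by 2.30 and 2.47. With dexamethasone 6 of the 8 were called higher and 2 were not called, with a median of 0.29, beside 5116 higher and 4820 lower of all 18913. Hp, among those called higher, was under the floor in both groups, so its call carries no reliable order. Serpina3n, a secreted protease inhibitor, rose 2.56-fold (1070 ± 109 dexamethasone, 419 ± 50.2 incubated, adjusted p = 8.78e-07) and Cp 1.57-fold. With scaling to the hybridization controls 2 rose and 2 fell, the falls being those of Mt1 and Mt2, where 1260 of all 18893 rose and 13572 fell.

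Genes that carry the signals for acute-phase genes were mostly higher after incubation: of 25 tested out of 36, 18 rose, 2 fell and 5 did not pass, with a median of 0.76. All 18913 tested probe sets gave 6620 higher and 7593 lower, so being called was itself common. Il6ra, 1 of the 2 that fell, averaged under 200 in both groups. Osmr, the oncostatin M receptor, rose 7.34-fold (1655 ± 63.5 incubated, 226 ± 18.4 fresh), and the NF-kB family genes Relb, Bcl3 and Nfkbie were higher, Relb by at least 5.94-fold and Bcl3 by at least 2.01-fold. With dexamethasone 16 rose, 4 fell and 5 did not pass, with a median of 0.36, whereas scaling to the hybridization controls gave 4 higher and 12 lower. Here all tested probe sets gave 5116 higher and 4820 lower of 18913, and 1260 and 13572 of 18893 with that scaling. Cebpd and Cebpb, C/EBP factors that bind acute-phase promoters, rose 2.27-fold (3645 ± 66.4 dexamethasone, 1605 ± 28.3 incubated) and 1.82-fold (1900 ± 24.2 dexamethasone, 1042 ± 45.6 incubated). Il6st, the shared signalling chain gp130, rose by 0.67 on the log2 scale and Il6ra, the IL-6 receptor chain, was at least 1.499-fold higher. Relb, at 1207 ± 88.9 with dexamethasone and 1188 ± 93.3 in incubated tissue, did not pass the test. The cytokine genes Il1a, Il1b, Il6, Tnf, Lif and Osm were under 200 in all 3 groups.

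As a check of the treatment, 15 of 17 tested glucocorticoid receptor target genes rose and 2 fell with dexamethasone against incubated. By comparison, 5116 of all 18913 tested probe sets rose and 4820 fell. Scaling to the hybridization controls gave 7 higher and 6 lower, beside 1260 higher and 13572 lower of all 18893 tested. This list too was chosen with earlier results of these data known. Zbtb16 rose by 3.22 on the log2 scale and Fkbp5 by 1.99. Cebpd, Mt1, Mt2 and Nfkbia stand in this list and in an acute-phase list. On incubation 5 of the 17 rose, 8 fell and 4 were not called, beside 6620 higher and 7593 lower of all 18913.

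Receptors and partners of the member proteins were measured too, 12 tested of 18. On incubation 6 rose, 5 fell and 1 did not pass, beside 6620 higher and 7593 lower of all 18913 tested probe sets. Slc22a17, the lipocalin 2 receptor, fell by 1.54 on the log2 scale (1065 ± 99.4 incubated, 3162 ± 170 fresh), and Lrp2, the endocytic receptor megalin that also takes up lipocalin 2, fell by 1.02 (7073 ± 131 incubated, 14413 ± 311 fresh). Both therefore moved opposite to Lcn2. Tlr4, a receptor for calprotectin, was at least 1.67-fold higher and Scarb1, a receptor for serum amyloid A and high-density lipoprotein, rose by 1.56. With dexamethasone 1 rose, 4 fell and 7 did not pass, beside 5116 higher and 4820 lower of all 18913. Mmp9, 1 of the 4, was under the floor in both groups. With scaling to the hybridization controls 11 of 12 fell, where 13572 of all 18893 probe sets were called lower and 1260 higher. Slc22a17 and Lrp2 did not pass the test there, at 1081 ± 141 and 7526 ± 341 with dexamethasone and 1065 ± 99.4 and 7073 ± 131 in incubated tissue. Bsg, the calprotectin receptor basigin, fell by 0.55.

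Relatives of the members by sequence, 14 tested of 26 on the array, moved in both directions. Chia1, an acidic chitinase related to Chil3, was at least 2.87-fold lower in incubated than in fresh tissue, having passed the filter through the fresh arrays alone, and was called lower with dexamethasone with both groups under the floor. Of the S100 family, S100a6 rose 17.5-fold on incubation (11398 ± 1059 incubated, 653 ± 67.0 fresh, adjusted p = 4.47e-13 by limma) and S100a14 was at least 5.22-fold higher, while S100b, an S100 protein of glia, fell by 5.91 on the log2 scale (216 ± 46.1 incubated, 14752 ± 411 fresh). The lipocalin gene Apod fell by 2.65 on incubation and rose by 1.26 with dexamethasone (8515 ± 82.2 dexamethasone, 3543 ± 165 incubated). S100a14 rose by 0.68 and S100a4 by 0.65 with dexamethasone. Over the list, incubation gave 5 higher, 8 lower and 1 not passing, and dexamethasone gave 9 higher, 1 lower and 4 not passing, or 2 higher and 7 lower with scaling to the hybridization controls. For all 18913 tested probe sets incubation gave 6620 higher and 7593 lower, and dexamethasone 5116 and 4820. That scaling turned the latter into 1260 and 13572 of 18893.

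Among the technical values, the Gapdh probe sets for the 3′ and 5′ ends of the message had signal ratios of 5.26 ± 0.22 in dexamethasone, 3.74 ± 0.24 in incubated and 7.11 ± 0.36 in fresh tissue (SD, n = 3 each), which moved with the groups, and its part in the changes was not tested. The share of probe sets at 200 or more was 37.4% to 37.7% on dexamethasone, 36.0% to 36.4% on incubated and 39.4% on fresh arrays. Within groups, arrays correlated at 0.992 to 0.993 across tested probe sets, and no array stood apart.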

How the data were processed

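RNA of pooled Reissner's membrane was amplified by a small-sample protocol with repeated in vitro transcription and hybridized to 9 Affymetrix arrays, per the labels' protocols. The deposited file holds an intensity on a linear scale for each probe set. Per the labels, the authors scaled every array to a target of 500 over all probe sets. The summarising software is not given in the sources used here. Detection calls were not used. From there, control probe sets were left out, probe sets reaching 200 on at least 3 of 9 arrays were kept, and log2 of signal plus 32 was fitted with 1 mean per group (limma 3.58.1, R 4.3.3, data.table version 1.17.8, eBayes with an intensity trend), with Benjamini-Hochberg adjustment over 18913 probe sets and a threshold of 0.05. The fit was tested on simulated data. Where 3 arrays of a group lay under 200 and the other mean above it, the fold is that mean over 200, as a bound, and counts, medians and differences were also computed with values under 200 put at 200. A listed gene is represented by 1 probe set, the brightest on average among its tested ones or, with none tested, among all.

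Of 45101 probe sets 64 were controls, 34945 had 1 gene symbol, 932 several and 9160 none, and 268 of 308 list entries matched the array. Members and lists were chosen with earlier results of these data known. Besides the members, up to 4 called genes per list and comparison with the smallest adjusted p and a group mean of at least 200 were eligible to be named, with defining markers at the floor and the 4 genes of most like pattern for Lcn2, Saa3 and S100a9. Elane, Cybb, Cyba, Csf3r, S100a4 and the genes named as not passing or under 200 fell outside that rule or were picked as defining markers after their values were seen. Promoter letters came from RefSeq (GRCm38.p6), which matched 9 of 9 members. Alternatives were quantile normalization, median centring, scaling to the hybridization controls, other pseudocounts, floors and fits, and leaving out each array. Python 3.11.15, pandas 2.3.3, NumPy 2.4.6 and matplotlib 3.10.9 were used for tables and figures.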

Additional observations from a re-analysis of the deposited data

How the results depend on the processing

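The 30 fitted member changes kept their direction and their side of the threshold in all 510 values under other settings. Settings that altered only the filter, the estimate of the spread or the block left the fitted changes as they were. For those settings only the side of the threshold could move. Fitted changes for dexamethasone against incubated ranged over 0.67 to 1.19 for Lcn2, 2.21 to 2.73 for Saa3, -4.67 to -3.38 for S100a8 and -5.86 to -2.98 for S100a9. The 210 differences between the changes of Lcn2 or Saa3 and those of granule genes never changed sign as fitted with the pseudocount, and 86 moved by more than the spread between arrays. Median centring cancels in these differences, so it could not change their sign. With the array letter as a replicate block, 14130 probe sets were called for incubated against fresh, 9811 for dexamethasone against incubated and 14369 for dexamethasone against fresh, against 14213, 9936 and 14419 without it, and no call of a member changed. Deviations of same-letter arrays from their group means correlated at -0.062 to 0.16. These values cannot show whether arrays of the same letter share a pool or a batch, and the meaning of the letters is not stated. Without a filter on low signals 18867, 10889 and 19364 were called.

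Scaling changed the balance of all probe sets. Incubated against fresh gave 6620 higher and 7593 lower as reported, 10110 and 4455 with median centring (median change 0.28) and 9942 and 4274 with scaling to the hybridization controls (median change 0.28). Dexamethasone against incubated gave 5116 and 4820 as reported, 3464 and 6954 with median centring (median change -0.11) and 1260 and 13572 with the hybridization controls (median change -0.46). Dexamethasone against fresh gave 7156 and 7263 as reported, 9341 and 5339 with median centring (median change 0.21) and 5451 and 8458 with the hybridization controls (median change -0.15). List counts under these scalings were added after seeing the data. Small list changes such as that of Il6st on incubation, -0.16 as reported and 0.17 with median centring, change sign with the scaling; the cause was not tested. Signals under 200 carry no order, so the depth of the fall of granule genes with dexamethasone is known only as a bound.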
